A study of Mus musculus with 15 samples.

Results

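Interferon-stimulated genes are the transcripts that cells make in response to interferons, and 43 of them were followed here in mouse heart. The 43 symbols were listed by name, as genes with known roles in the interferon response, and each was matched to 1 Ensembl identifier of a table with 36653 identifiers. All 43 were found. The hearts came from wild-type C57BL/6 mice aged 10 weeks, and RNA was taken from the ventricle. Vehicle mice received saline. AngII mice were given angiotensin II, a peptide that constricts blood vessels, from a pump under the skin at 1000 ng/kg/min. AngII plus OA mice had the same pump and were also treated with oleic acid (OA), a fatty acid with a single double bond. Its dose was 160 mg/kg per day, and each mouse had a daily volume of 0.3 mL. Each group had 5 biological replicates, so 15 libraries were compared. A group that received oleic acid without angiotensin II is not part of the data used here, and neither the length of treatment nor the sex of the mice is given in the sources used here. The series' title names a protective role of oleic acid in the heart under angiotensin II, and the comparisons of its groups are AngII against vehicle, AngII plus OA against AngII, and AngII plus OA against vehicle.

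Type I and type II interferons bind receptors on the cell surface, and Janus kinases then phosphorylate STAT proteins. The phosphorylated STAT proteins enter the nucleus, where complexes that contain IRF9 bind the interferon-stimulated response element and STAT dimers bind the gamma-activated site. The genes switched on include sensors of foreign RNA, proteins that block viral replication, GTPases that attack pathogen-containing vacuoles, the machinery of class I antigen presentation, and chemokines that attract lymphocytes. Type I interferon receptors are found on nearly all cell types, so muscle cells, endothelium, fibroblasts and macrophages of the heart can all make these transcripts.

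Levels are given in FPKM, a density of sequenced fragments scaled by gene length and library size, on which genes can be compared per length. The library sizes recovered from the table were 24468506 to 28270789 fragments, 10990 to 11528 genes reached 1 FPKM, and mitochondrially encoded genes took 34.5% to 50.0% of the FPKM. The thinnest member, Cxcl10, rested on a median of 28 fragments per library (4 to 82), and B2m, the most abundant, on 19016. Markers of ventricular and general cardiac muscle were high in all 15 libraries, at a summed 8456 to 21382 FPKM. AngII replicate 2 stood apart. It had the lowest of those sums and by far the highest sums of 4 atrial markers (3012 FPKM, against 16.9 to 749 elsewhere), 3 adipocyte markers (277 FPKM, against 0.2 to 81.4) and 2 mesothelial markers (68.7 FPKM, against 0.0 to 9.0). Where leaving it out turned the direction of a named member's difference, both values are given. As the samples are bulk tissue, fewer cells of a type and less RNA per cell cannot be told apart.

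In vehicle hearts the members spanned a wide range of levels, led by class I antigen presentation. B2m, the light chain shared by all class I molecules, stood at 759 ± 112 FPKM (SD, n = 5). The class I heavy chains H2-D1 and H2-K1 followed at 141 ± 12.9 and 107 ± 15.6 FPKM, and their vehicle ranges overlapped. Bst2, also called tetherin, which holds budding virions at the cell surface, was the most abundant antiviral effector at 53.7 ± 8.92 FPKM. Ifi27, a small membrane protein, stood at 29.8 ± 3.43 FPKM, Psmb10, a catalytic subunit of the immunoproteasome, at 28.1 ± 7.68 FPKM, and Iigp1, an immunity-related GTPase, at 21.6 ± 6.09 FPKM. The ranges of these 3 overlapped. At the bottom were Dhx58 at 0.873 ± 0.263, Zbp1 at 0.579 ± 0.260, Mx1 at 0.472 ± 0.234 and Cxcl10 at 0.390 ± 0.186 FPKM. Every member passed the filter of a mean of 0.5 FPKM over all libraries, and 25 of 43 had a mean of at least 5 FPKM.

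The letters of the response element were looked up in the RefSeq promoter windows (build GRCm38.p6) that were on hand for 32 of the 43 members, in the 250 bases before the transcript start. The motif was GAAANNGAAA or, on the other strand, TTTCNNTTTC. It occurred in 15 of the 32 members (46.9%), against 3.47% of the 26742 genes with a window. By role, all 6 GTPases with a window had it, as did 6 of 11 antiviral effectors, 1 of 7 class I genes, 1 of 4 signalling factors, 1 of 2 chemokines and 0 of 2 sensors. These counts include Stat2, the signalling factor, and Bst2, an effector, whose windows did not run into a transcript of the gene in GENCODE M21. The letters of the gamma-activated site, TTCNNNGAA, which read the same on both strands, occurred in 8 of 32 members (25.0%), against 8.17% of all genes. The 2 motifs overlapped in 1 member. A match describes letters in a window and is not a measured binding site. The 6 GTPases are shown because all of them carry the motif, and Isg15, Oas1a, B2m and Cxcl10 stand for the effectors, class I genes and chemokines that have it. Bases are printed 5′ to 3′ in the direction of the gene, with the motif, or overlapping copies of it, in capitals and up to 10 bases on either side.
Gbp2: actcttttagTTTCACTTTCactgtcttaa
Gbp3: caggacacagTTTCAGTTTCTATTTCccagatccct
Gbp5: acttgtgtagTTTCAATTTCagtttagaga
Gbp7: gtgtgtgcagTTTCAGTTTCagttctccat
Igtp: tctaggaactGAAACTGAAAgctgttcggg
Irgm1: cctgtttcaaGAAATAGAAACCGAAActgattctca
Isg15: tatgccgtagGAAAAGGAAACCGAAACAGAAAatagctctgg
Oas1a: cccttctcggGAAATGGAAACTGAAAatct
B2m: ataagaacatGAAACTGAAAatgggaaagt
Cxcl10: tcacgctttgGAAAGTGAAActtacctcac
These stretches lie at chr3:142620594-142620623 on the plus strand (Gbp2), chr3:142559989-142560024 on the plus strand (Gbp3), chr3:142496759-142496788 on the plus strand (Gbp5), chr3:142530273-142530302 on the plus strand (Gbp7), chr11:58199512-58199541 on the plus strand (Igtp), chr11:48871425-48871460 on the minus strand (Irgm1), chr4:156200865-156200906 on the minus strand (Isg15), chr5:120907526-120907555 on the minus strand (Oas1a), chr2:122147538-122147567 on the plus strand (B2m) and chr5:92349083-92349112 on the minus strand (Cxcl10), all upstream of the annotated start. Isg15 held 3 overlapping copies, and Gbp3, Irgm1 and Oas1a held 2 each. The 4 Gbp genes have the TTTCNNTTTC orientation, and Igtp, Irgm1, Isg15, Oas1a, B2m and Cxcl10 the GAAANNGAAA orientation.

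Under angiotensin II, most members had a higher mean than in vehicle, yet no single member passed the test. The difference on the log2(FPKM + 1) scale was above 0 for 40 of 43 members, against 65.7% of all 13121 genes tested, and its median was 0.30 over the members and 0.07 over all genes. The limma test with Benjamini-Hochberg adjustment over all genes called 0 of 43 members higher and 0 lower, where it called 1.27% of all genes higher and 0.236% lower. At an unadjusted p under 0.05, 12 members were higher and 0 lower, against 13.3% and 3.29% of all genes. The AngII and vehicle ranges overlapped for all 43 members, whereas 3.13% of all genes lay wholly higher and 0.663% wholly lower in AngII. Scaling moved these counts: 36 members were above 0 with quantile normalization (median 0.18) and 38 after leaving mitochondrial transcripts out of the total (median 0.22), where limma called 69 genes higher and 40 lower, and 77 higher and 37 lower, in place of 166 and 31. The 3 members below 0 were Irf1 (-0.09), Parp14 (-0.04) and Cxcl9 (-0.07). Without AngII replicate 2 these turned to 0.01, 0.12 and 0.23, while Stat2 turned from 0.06 to -0.04. In that setting 42 members were above 0, 16 reached an unadjusted p under 0.05 and 0 were called. Without AngII replicate 3, 6 members were called higher, where 2.79% of all genes were: Irf7, Zbp1, Ifi27, Psmb10, B2m and H2-D1. That library had the lowest median of the members in its group (-0.15), so leaving it out takes away low AngII values. The adjusted p values given below without it are therefore no separate support. With any other single library left out, 0 members were called.

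**Figure D1:**
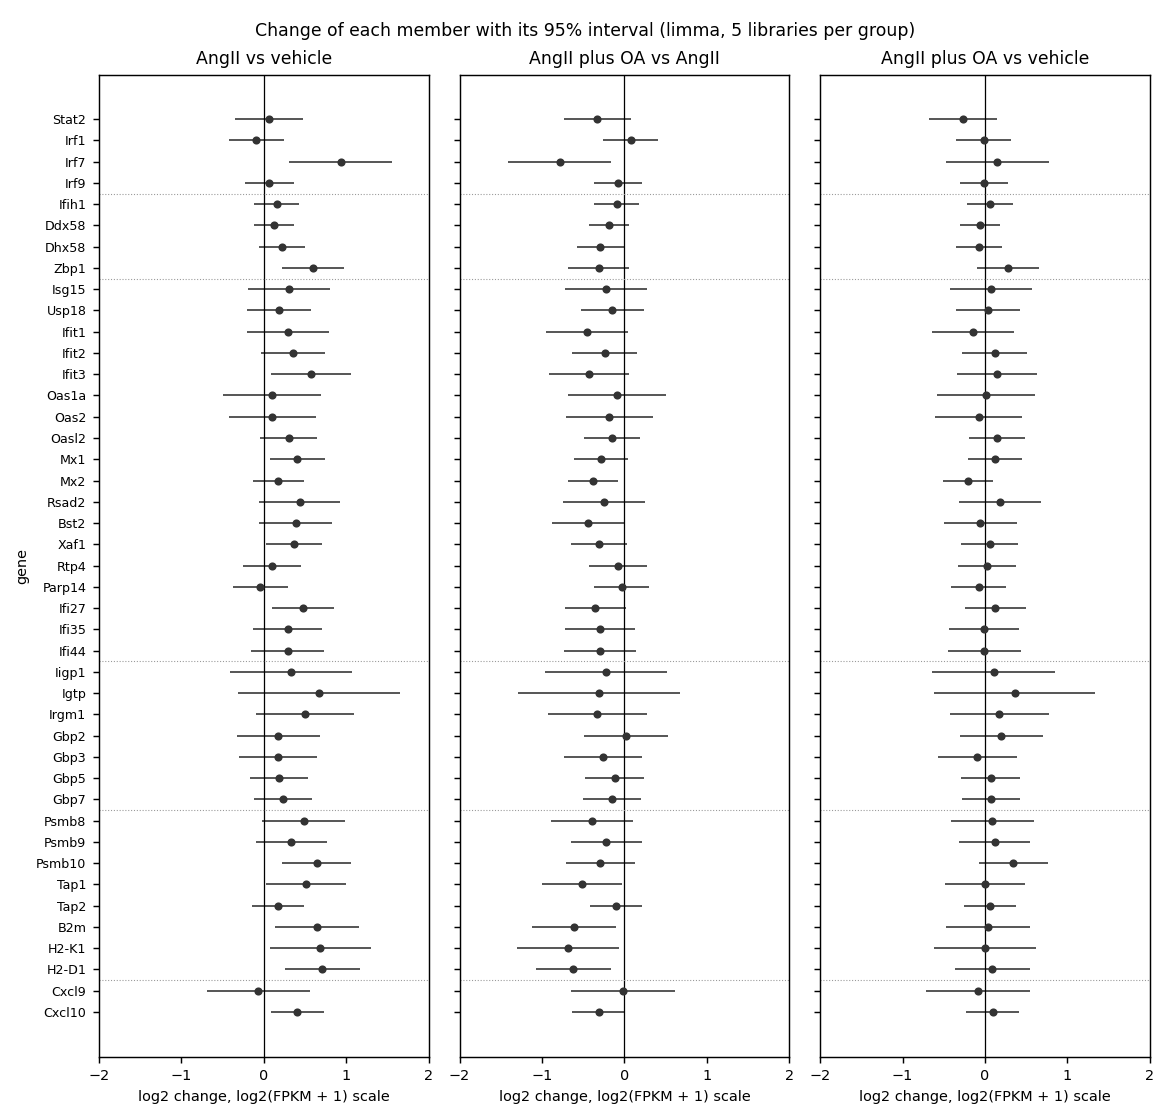
Difference of each member on the log2(FPKM + 1) scale (x axis) in the 3 comparisons, with its 95% interval from limma (5 libraries per group), members on the y axis grouped by role. Most points lie above 0 for AngII against vehicle and below 0 for AngII plus OA against AngII, and none of the 43 was called in any panel.

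Among the signalling and transcription factors, Irf7 had the largest difference of all 43 members. IRF7 is the transcription factor that drives type I interferon production and is itself induced by interferon. Irf7 stood at 4.44, 5.92, 3.47, 6.27 and 5.24 FPKM in vehicle replicates 1 to 5 and at 12.9, 20.9, 4.22, 10.2 and 9.89 FPKM in AngII replicates 1 to 5. Replicate 3 was the only AngII library inside the vehicle range, and replicate 2 was the highest of all 15. The difference was 0.94 (SE 0.29, limma adjusted p = 0.127). It was 0.70 without AngII replicate 2 (adjusted p = 0.171) and 1.22 without AngII replicate 3, the lowest AngII library (adjusted p = 0.0125). Irf9 and Stat2, which encode subunits of the complex that binds the response element, had differences of 0.07 and 0.06, the second below 0 without AngII replicate 2. Irf9 had means of 5.53 and 5.84 FPKM and Stat2 of 9.34 and 10.0 FPKM in vehicle and AngII. Irf1, a factor induced mainly by type II interferon, had means of 8.47 and 7.89 FPKM.

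The nucleic acid sensors were scarce, and Zbp1 stood out among them. ZBP1 binds nucleic acids in the Z conformation and can trigger necroptosis. Zbp1 measured 0.587, 0.427, 0.465, 1.03 and 0.392 FPKM in the vehicle libraries and 2.03, 1.58, 0.742, 1.15 and 1.52 FPKM in the AngII libraries. Vehicle replicate 4 and AngII replicate 3 were the libraries by which the 2 ranges overlapped. The difference was 0.59 (SE 0.18, limma adjusted p = 0.108, the smallest among the members), 0.56 without AngII replicate 2 (adjusted p = 0.130) and 0.70 without AngII replicate 3 (adjusted p = 0.0383). The RNA helicases Ifih1 (MDA5), Ddx58 (RIG-I) and Dhx58 (LGP2) had differences of 0.16, 0.12 and 0.22. Their means ran from 0.873 to 2.79 FPKM in vehicle and from 1.19 to 3.15 FPKM in AngII.

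Of the 18 antiviral effectors, 17 had a difference above 0 (median 0.30), 4 reached an unadjusted p under 0.05 and 0 were called. Isg15 encodes a ubiquitin-like protein that is attached to other proteins. It stood at 11.2, 10.2, 9.20, 14.3 and 12.1 FPKM in vehicle and at 16.1, 11.2, 8.70, 22.3 and 15.8 FPKM in AngII replicates 1 to 5. AngII replicates 1, 4 and 5 lay above every vehicle library, replicate 2 within the vehicle range and replicate 3 below it. Usp18, the protease that removes ISG15 and dampens the type I receptor, measured 1.88, 1.91, 1.89, 2.33 and 1.87 FPKM in vehicle and 3.77, 1.22, 1.56, 3.12 and 2.93 FPKM in AngII. Again replicates 1, 4 and 5 exceeded all vehicle libraries, and here replicates 2 and 3 both lay below them.

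The same libraries were high for Oas1a, a synthetase of the oligoadenylates that activate RNase L. Its values were 2.89, 3.89, 3.21, 4.06 and 3.58 FPKM in vehicle and 6.36, 1.03, 2.85, 5.57 and 5.89 FPKM in AngII, so AngII replicate 2 held the lowest and AngII replicate 1 the highest value of all 15 libraries. The difference was 0.10 with all libraries and 0.41 without AngII replicate 2 (limma adjusted p = 0.239). Rsad2, or viperin, an enzyme that makes a chain-terminating nucleotide, measured 6.10, 4.08, 4.93, 6.44 and 3.59 FPKM in vehicle and 10.4, 3.42, 7.36, 6.02 and 10.1 FPKM in AngII, where replicate 2 was again lowest. Its difference was 0.43 with all libraries and 0.65 without that library (adjusted p = 0.0924). Ifi44, a cytoplasmic interferon-induced protein, had 0.29 and 0.47 on the same 2 settings.

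Ifit3, which binds IFIT1 and other members of the family that recognises foreign RNA, had the largest difference of the antiviral effectors. It stood at 12.0, 10.4, 9.61, 16.0 and 8.14 FPKM in vehicle and 21.3, 18.8, 10.4, 17.1 and 18.5 FPKM in AngII, with all but replicate 3 above every vehicle library. The difference was 0.57 (SE 0.23, limma adjusted p = 0.221). Ifit1 and Ifit2 had differences of 0.30 and 0.35. Ifi27 measured 30.6, 32.0, 25.5, 27.2 and 33.8 FPKM in vehicle and 45.6, 48.6, 26.2, 51.0 and 42.4 FPKM in AngII, where replicate 3 alone fell within the vehicle range. Its difference was 0.48 (SE 0.18, adjusted p = 0.181) and 0.64 without AngII replicate 3 (adjusted p = 0.0283).

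Bst2 was at 52.7, 65.6, 46.0, 44.6 and 59.5 FPKM in vehicle and 80.1, 53.7, 48.8, 97.8 and 79.5 FPKM in AngII, with replicates 1, 4 and 5 above every vehicle library. Mx1, the gene of a dynamin-like GTPase, was at 0.284, 0.357, 0.322, 0.850 and 0.547 FPKM in vehicle. In AngII it was at 1.28, 0.813, 0.417, 1.11 and 1.19 FPKM, a level at which few fragments were counted. Its difference was 0.41 (limma adjusted p = 0.194), and replicates 1, 4 and 5 were once more above all vehicle libraries. Xaf1, a pro-apoptotic zinc finger protein, had 0.37 with all libraries and 0.25 without AngII replicate 2. The other effectors, Oas2, Oasl2, Mx2, Rtp4, Parp14 and Ifi35, had differences from -0.04 (Parp14, an ADP-ribosyltransferase) to 0.30 (Oasl2, a ubiquitin-like relative of the oligoadenylate synthetases).

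**Figure D2:**
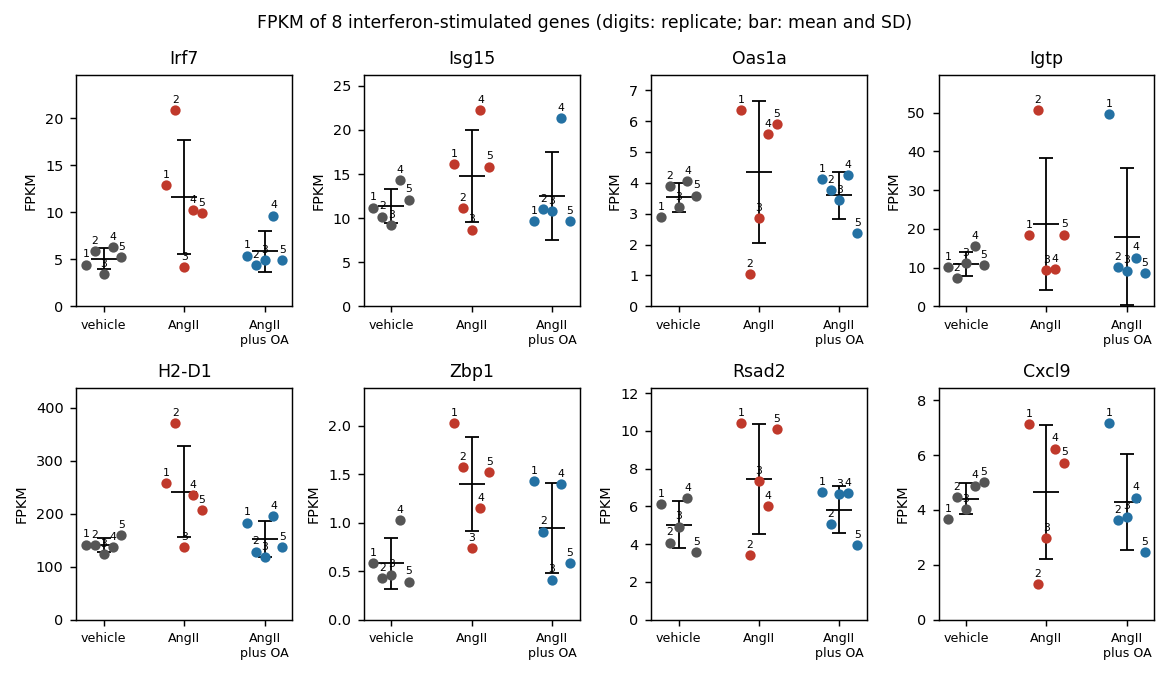
FPKM (y axis) of 8 members in each library, by group (x axis), with digits for the replicate and bars for the mean and SD (n = 5). AngII replicates 1, 4 and 5 and AngII plus OA replicate 4 are high for Irf7, Isg15 and H2-D1. AngII replicate 2 is the highest library for Irf7, H2-D1 and Igtp, and AngII plus OA replicate 1 is about as high for Igtp.

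All 7 interferon-inducible GTPases had differences above 0 for AngII against vehicle (median 0.23), and 0 reached an unadjusted p under 0.05. Igtp, an immunity-related GTPase also called IRGM3, stood at 10.1, 7.23, 11.1, 15.6 and 10.6 FPKM in vehicle and 18.5, 50.7, 9.34, 9.64 and 18.5 FPKM in AngII. AngII replicate 2 was the highest of all 15 libraries, and replicates 3 and 4 lay within the vehicle range. The difference was 0.67 (SE 0.46, limma adjusted p = 0.496) and 0.30 without AngII replicate 2. Iigp1 measured 21.1, 14.3, 23.9, 30.4 and 18.1 FPKM in vehicle and 30.8, 58.9, 16.5, 15.3 and 28.3 FPKM in AngII, and only AngII replicates 1 and 2 exceeded every vehicle library. Its difference was 0.33, or 0.05 without AngII replicate 2. Irgm1, a regulator of the other immunity-related GTPases, had 3.85, 3.07, 3.79, 5.70 and 3.24 FPKM in vehicle and 5.43, 14.1, 3.97, 4.49 and 4.78 FPKM in AngII, again with replicate 2 far above the rest. Its difference was 0.50, or 0.22 without that library.

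The guanylate-binding proteins coat pathogen vacuoles and bacteria, and their genes were not raised above vehicle in AngII replicate 2. Gbp2 stood at 11.4, 9.90, 10.2, 17.9 and 12.3 FPKM in vehicle and 19.3, 9.57, 12.5, 12.6 and 16.7 FPKM in AngII, and replicate 2 was the lowest of all 15 libraries. Gbp5 was likewise lowest there, at 1.05 FPKM, against 1.34 to 2.24 FPKM in vehicle, and Gbp3 and Gbp7 lay there within their vehicle ranges. Gbp2, Gbp3, Gbp5 and Gbp7 had differences of 0.18, 0.17, 0.19 and 0.23 with all libraries, and 0.30, 0.11, 0.33 and 0.31 without AngII replicate 2.

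Class I antigen presentation had the largest median difference of the 6 roles, 0.58 (0.42 without AngII replicate 2), with all 8 members above 0, 5 at an unadjusted p under 0.05 and 0 called. H2-D1 stood at 142, 140.4, 124, 138 and 159.7 FPKM in vehicle and 258, 371, 138, 236 and 206 FPKM in AngII. All AngII libraries except replicate 3 lay above the vehicle range. The difference was 0.71 (SE 0.21, limma adjusted p = 0.114), 0.54 without AngII replicate 2 (adjusted p = 0.141) and 0.89 without AngII replicate 3 (adjusted p = 0.0179). H2-K1 measured 97.6, 99.5, 90.0, 118 and 128 FPKM in vehicle and 199.6, 371, 86.0, 162 and 140.3 FPKM in AngII, with replicate 3 below the lowest vehicle library and the others above the highest. Its difference was 0.69, and 0.41 without AngII replicate 2.

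B2m had 750.1, 608, 711, 829 and 899.7 FPKM in vehicle and 1329, 1969, 639, 1154 and 1182 FPKM in AngII, again with replicate 3 alone inside the vehicle range. The difference was 0.65 (SE 0.24, limma adjusted p = 0.180), 0.46 without AngII replicate 2 and 0.87 without AngII replicate 3 (adjusted p = 0.0281). Psmb10 stood at 26.6, 41.0, 21.7, 22.9 and 28.5 FPKM in vehicle and 44.1, 55.8, 29.5, 44.7 and 46.6 FPKM in AngII, where vehicle replicate 2 lay above AngII replicate 3. Its difference was 0.64 (SE 0.20, adjusted p = 0.121). The other immunoproteasome subunits, Psmb8 and Psmb9, had 0.48 and 0.33. The subunits of the transporter that carries peptides into the endoplasmic reticulum had 0.52 (Tap1) and 0.17 (Tap2), and no test compared the pair.

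The chemokines CXCL9 and CXCL10 attract T cells and natural killer cells through the receptor CXCR3. Cxcl9 stood at 3.66, 4.46, 4.02, 4.89 and 5.02 FPKM in vehicle and 7.12, 1.29, 2.98, 6.23 and 5.73 FPKM in AngII, where replicates 1, 4 and 5 lay above and replicates 2 and 3 below all vehicle libraries. Its difference was -0.07, or 0.23 without AngII replicate 2. Cxcl10 had 0.392, 0.0723, 0.486, 0.547 and 0.452 FPKM in vehicle and 1.38, 0.487, 0.550, 1.02 and 0.843 FPKM in AngII, a difference of 0.41 (limma adjusted p = 0.184) on few fragments.

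When oleic acid was given with angiotensin II, the means of most members were lower than with angiotensin II alone, and again no member was called. This comparison uses the same AngII libraries as the previous one, with the opposite sign, so it is not independent of it. The difference was below 0 for 41 of 43 members, while 36.6% of all genes were above 0. The median was -0.28 over the members and -0.05 over all genes. The limma test called 0 of 43 members, and 0% of all genes in either direction. At an unadjusted p under 0.05, 8 members were lower and 0 higher, against 5.25% and 1.35% of all genes. For 0 members did the ranges separate, against 1.04% of all genes lower and 0.229% higher in AngII plus OA. The 2 members above 0 were Irf1 (0.07) and Gbp2 (0.02). Without AngII replicate 2 both turned below 0 (-0.02 and -0.10) and Iigp1 (0.06) and Igtp (0.06) turned above it, so 41 members were again below 0, with 8 at an unadjusted p under 0.05. Without AngII replicate 3 there were 42 and 20, and without AngII plus OA replicate 4 there were 41 and 17. In each of these settings 0 members were called. Markers of other cells also had unlike means in these groups. All 5 cardiomyocyte markers were above 0 (median 0.37, 2 at an unadjusted p under 0.05). All 5 fibroblast markers (median -0.30, 3 at an unadjusted p under 0.05) and 4 of 5 endothelial markers (median -0.28, 2 at an unadjusted p under 0.05) were below 0. Of these markers 0 were called. AngII replicate 2 had the lowest cardiomyocyte and the highest fibroblast sum, and the markers' differences were not computed without it. The part of these cells in the members' differences was not tested.

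All 8 class I members were below 0 for AngII plus OA against AngII, with a median of -0.45. This was the largest of the 6 roles with all libraries, but without AngII replicate 2 it was -0.34 and that of the 2 chemokines -0.35. H2-D1 in AngII plus OA replicates 1 to 5 stood at 183, 128, 118, 195 and 136 FPKM, so replicates 1 and 4 lay above every vehicle library and the other 3 below the lowest AngII value of 138 FPKM. The difference from AngII was -0.62 (SE 0.21, limma adjusted p = 0.706, the smallest among the members). H2-K1 had 138, 92.7, 76.5, 137 and 98.0 FPKM and a difference of -0.69, and -0.41 without AngII replicate 2. B2m had 976, 778, 645, 951 and 593 FPKM and a difference of -0.61, and -0.42 without that library. Tap1 had a difference of -0.51 and Psmb10 of -0.29, both with overlapping ranges.

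Irf7 in the AngII plus OA libraries measured 5.41, 4.35, 4.89, 9.65 and 4.93 FPKM, so replicate 4 stood near the AngII level and the others within the vehicle range. The difference from AngII was -0.79 (SE 0.29, limma adjusted p = 0.710), the largest of the 43, and -0.55 without AngII replicate 2. Zbp1 stood at 1.43, 0.909, 0.413, 1.40 and 0.586 FPKM, with replicates 1 and 4 at the level of the AngII libraries, and its difference was -0.31. The RNA helicase Dhx58 had -0.29.

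All 18 antiviral effectors were below 0 (median -0.27). Isg15 measured 9.68, 11.0, 10.8, 21.4 and 9.67 FPKM in the AngII plus OA libraries, where replicate 4 was close to the highest AngII value and the other 4 lay within the vehicle range. Oas1a had 4.13, 3.77, 3.43, 4.26 and 2.38 FPKM, with replicates 1 and 4 above and replicate 5 below all vehicle libraries. Mx2 stood at 0.838, 1.04, 0.807, 1.88 and 0.879 FPKM, with all but replicate 4 below the lowest vehicle library (1.22 FPKM). GENCODE M21 annotates Mx2 as a polymorphic pseudogene. Its difference from AngII was -0.38 (SE 0.14, limma adjusted p = 0.710). Bst2 had 53.7, 43.9, 41.3, 79.1 and 44.7 FPKM and a difference of -0.44, and Ifit3 16.3, 9.41, 13.2, 17.2 and 7.63 FPKM and a difference of -0.43. Their replicate 4 was likewise the highest of the group.

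The GTPases followed another library. Igtp stood at 49.7, 10.1, 9.21, 12.6 and 8.50 FPKM in AngII plus OA, where replicate 1 was about as high as AngII replicate 2 and the other 4 lay within the vehicle range. Iigp1 had 50.9, 19.6, 17.7, 20.1 and 16.5 FPKM, Irgm1 8.78, 3.91, 3.99, 3.81 and 3.27 FPKM and Gbp2 26.9, 12.2, 10.2, 13.3 and 11.8 FPKM, and in each replicate 1 was highest. Leaving that library out moved the difference of Igtp from AngII from -0.31 to -0.75, that of Iigp1 from -0.22 to -0.51 and that of Irgm1 from -0.33 to -0.54. Leaving out AngII replicate 2 instead brought them to 0.06, 0.06 and -0.04. None was called in either setting. Cxcl9 was also highest in replicate 1, with 7.16, 3.63, 3.76, 4.45 and 2.47 FPKM.

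**Figure D3:**
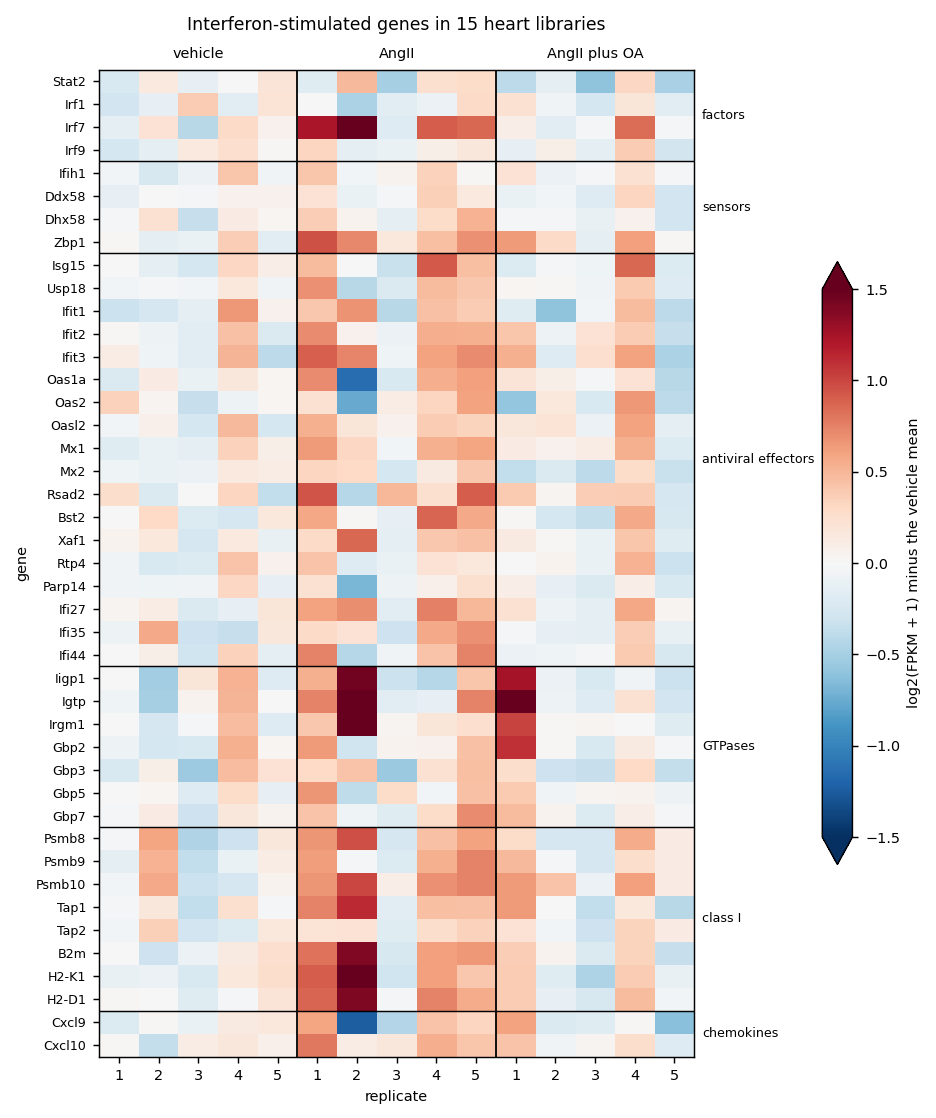
Level of each member (rows, by role) in the 15 libraries (columns, by group and replicate) as log2(FPKM + 1) minus the mean of the vehicle libraries, with red above and blue below it, and arrows on the colour bar where values go beyond its ends. AngII replicates 1, 4 and 5 and AngII plus OA replicate 4 are red for most members, AngII replicate 3 and AngII plus OA replicates 2, 3 and 5 are pale or blue for most, and AngII replicate 2 and AngII plus OA replicate 1 are red for some members and not for others.

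Between AngII plus OA and vehicle the members differed little in their means. The difference was above 0 for 29 and below 0 for 14 members, with a median of 0.06 against 0.02 over all genes, and it ran from -0.26 (Stat2) to 0.36 (Igtp). Igtp turned to -0.08 without AngII plus OA replicate 1, and Stat2 had -0.41 without replicate 4. After rescaling to leave mitochondrial transcripts out of the total, the median was -0.02 and 17 members were above 0. Without AngII plus OA replicate 4 it was -0.03, also with 17 members above 0. The limma test called 0 of 43 members and 0% of all genes. At an unadjusted p under 0.05 there were 0 members, against 2.58% of all genes higher and 0.785% lower, and for 0 members did the ranges separate, against 0.655% higher and 0.183% lower. This does not show that the groups were alike, since the SE of a member's difference was as large as 0.46 (Igtp).

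The members differed between libraries of the same group. Counting members above all 5 vehicle libraries gave 33 of 43 in AngII replicate 1, 17 in replicate 2, 2 in replicate 3, 25 in replicate 4 and 31 in replicate 5. In AngII plus OA the counts were 18, 0, 1, 24 and 0 in replicates 1 to 5. Counting members below all vehicle libraries gave 0, 10, 9, 0 and 0 in AngII, and 3, 4, 10, 0 and 16 in AngII plus OA. So 3 AngII libraries and 1 AngII plus OA library had over 20 members above every vehicle library, while AngII replicate 3 had more members below than above. Such counts were not made over all genes. Mitochondrially encoded genes took 34.5% to 41.9% of the FPKM in AngII replicates 1, 4 and 5 and AngII plus OA replicates 1 and 4. They took 42.6% to 50.0% elsewhere, with 48.3% in AngII replicate 2, where 17 members were above. A lower share raises the FPKM of all other genes, and its part in the counts was not tested. The median over the 43 members, as log2(FPKM + 1) minus the vehicle mean, was 0.59, 0.18, -0.15, 0.43 and 0.45 in AngII replicates 1 to 5, and 0.22, -0.05, -0.15, 0.37 and -0.21 in AngII plus OA replicates 1 to 5. Among vehicle libraries it ran from -0.18 in replicate 3 to 0.17 in replicate 4.

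The roles did not move as 1 block. The median of the antiviral effectors was highest in AngII replicates 1 (0.56), 5 (0.52) and 4 (0.46) and in AngII plus OA replicate 4 (0.45), and it was 0.04 in AngII replicate 2 and 0.07 in AngII plus OA replicate 1. The GTPases had their highest median in AngII plus OA replicate 1 (1.01), followed by AngII replicate 1 (0.54), vehicle replicate 4 (0.47), AngII replicate 5 (0.44) and AngII replicate 2 (0.43), while AngII replicate 4 (0.06) and AngII plus OA replicate 4 (0.10) were near the vehicle mean. Class I antigen presentation peaked in AngII replicate 2 (1.06), followed by AngII replicates 1 (0.70), 5 (0.58) and 4 (0.57). AngII replicate 2 held the highest value of all 15 libraries for 13 members and the lowest for 10. Irf7, Igtp, Irgm1 and H2-K1 were among the first, and Usp18, Oas1a, Rsad2, Gbp2 and Cxcl9 among the second.

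**Figure D4:**
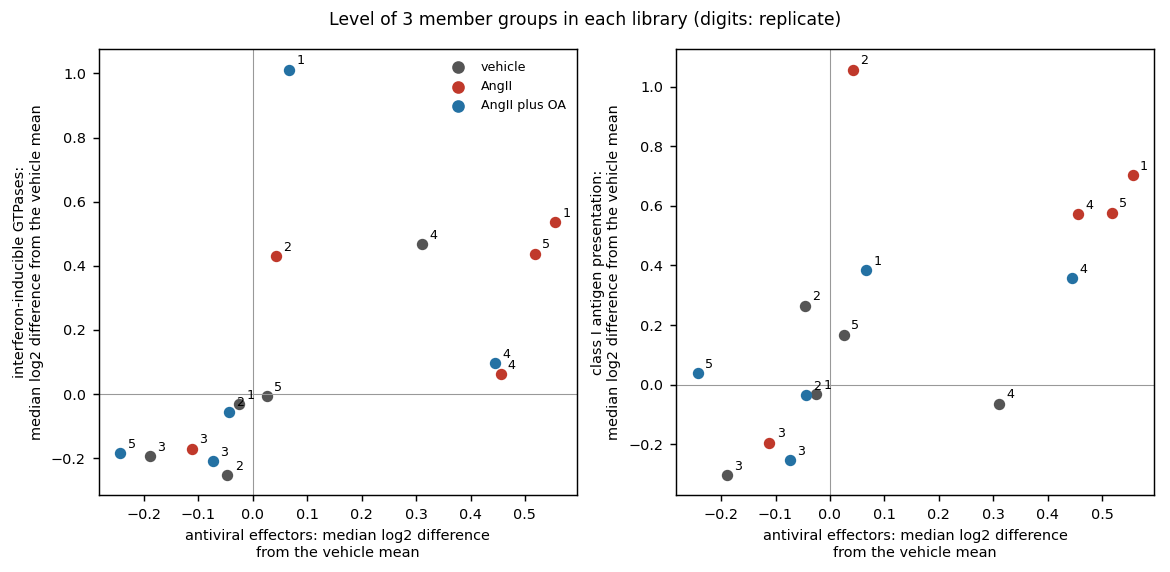
Each point is a library (digit: replicate, colour: group), placed by the median log2(FPKM + 1) difference from the vehicle mean of the 18 antiviral effectors (x axis) and of the 7 GTPases (left, y axis) or 8 class I genes (right, y axis). AngII plus OA replicate 1 is far up for the GTPases at 1.01 but near 0 for the effectors, and AngII replicate 2 is far up for class I at 1.06.

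Inside a group, most members varied together from library to library. After the mean of its group was taken from each gene, the median Pearson r over the 903 pairs of members was 0.46 across the 15 libraries, and 44.6% of the pairs exceeded 0.5. Pairs of a member with each of 13078 other genes had a median of 0.10, and 12.6% exceeded 0.5. Without AngII replicate 2 the member pairs had a median of 0.60 (61.9% above 0.5) and the pairs with other genes 0.12 (11.3%). Within roles, the median was 0.71 for class I, 0.58 for antiviral effectors and 0.49 for GTPases with all libraries, and 0.77, 0.71 and 0.73 without AngII replicate 2. Igtp and Iigp1 had an r of 0.98, H2-D1 and H2-K1 of 0.97, and B2m and H2-K1 of 0.93. Both Igtp and Iigp1 were highest in AngII replicate 2 and AngII plus OA replicate 1. The values without AngII replicate 2 still include AngII plus OA replicate 1, and none was computed without it. Irgm1 and Oas1a had an r of -0.45 across all libraries and of 0.44 without AngII replicate 2. All genes of a library share its FPKM denominator and its mix of cells, so these values describe the 15 libraries and were not tested.

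The spread of the members also differed between groups. Their median SD on the log2(FPKM + 1) scale was 0.24 in vehicle, 0.40 in AngII and 0.31 in AngII plus OA, where all genes tested had 0.20, 0.26 and 0.16. In AngII 36 of 43 members had a larger SD than in vehicle, and in AngII plus OA 30 of 43. The same counts were not made over all genes. The AngII SDs include replicate 2, with the highest of all 15 values for 13 members and the lowest for 10. They were not computed without it. The widest ratio within a group was in vehicle, where the highest value of Cxcl10 was 7.57 times the lowest, on few fragments. The highest value in AngII was 6.15 times the lowest for Oas1a, 5.51 times for Cxcl9 and 5.43 times for Igtp, and in AngII plus OA it was 5.84 times for Igtp. No test of the spread was run.

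Upstream of the members, the interferons themselves were at or near 0. Of 21 interferon genes listed, 12 matched an identifier, none passed the filter, and the highest single value was 0.154 FPKM (Ifnab, in an AngII library). Ifnb1, the early type I interferon, was above 0 in a single library, of the vehicle group, at 0.0498 FPKM. Ifng, the type II interferon, reached 0.0635, 0.151 and 0.127 FPKM in vehicle, AngII and AngII plus OA. At this depth an FPKM of that size stands for a few fragments.

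The receptor gene Ifngr1 rose under angiotensin II. It encodes the ligand-binding chain of the type II interferon receptor. Its values were 39.0, 26.4, 29.1, 26.8 and 28.6 FPKM in vehicle, 52.5, 51.8, 40.7, 47.4 and 69.3 FPKM in AngII and 46.4, 35.2, 40.6, 41.6 and 30.1 FPKM in AngII plus OA, and the vehicle and AngII ranges did not overlap. The difference between AngII and vehicle was 0.78 (SE 0.15, limma adjusted p = 0.0236). The call was kept in 8 of 17 alternatives, over which the adjusted p ran from 0.00970 to 0.0675 and the difference stayed above 0. Between AngII plus OA and AngII it was -0.42 (adjusted p = 0.710). Of the 6 receptor genes, 1 was thus called higher and 1 lay wholly higher in AngII than in vehicle, where 1.27% and 3.13% of all genes did. The other 5 receptor genes were not called. The receptor chains of type I interferon, Ifnar1 and Ifnar2, had means of 5.09 and 5.41 FPKM in vehicle and 5.78 and 6.15 FPKM in AngII.

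Of the other genes of the pathway, none of 5 kinases and STATs, 9 inhibitors of the pathway, 13 tested genes of interferon induction, 52 tested further induced genes and 14 further genes of the class I pathway was called in any comparison. Above 0 for AngII against vehicle were 4, 9, 11, 39 and 14 of them, with medians of 0.22, 0.18, 0.23, 0.14 and 0.31. The 2 most abundant of each list were as follows. Jak1 and Stat3, a kinase of the receptors and a STAT that also serves interleukin-6 family cytokines, had differences of 0.12 and 0.48. Irf2bp2, a repressor partner of IRF2, and Ptpn2, a phosphatase that acts on Janus kinases, had 0.06 and 0.18. Irf3 and Mavs, which carry the signal from RNA sensors, had -0.05 and -0.15. Ifitm3, which blocks virus entry, and Ifi27l2a had 0.46 and 0.91. Calr and Pdia3, chaperones of class I folding, had 0.30 and 0.48.

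In the class II pathway 1 of 7 tested genes was called higher in AngII, where 1.27% of all genes were. Ctss, the lysosomal protease cathepsin S that trims the invariant chain, stood at 11.0, 9.27, 16.6, 23.9 and 16.3 FPKM in vehicle, 34.2, 79.8, 23.8, 31.8 and 35.8 FPKM in AngII and 29.4, 18.8, 22.1, 29.2 and 16.5 FPKM in AngII plus OA. It rose by 1.30 (SE 0.29, limma adjusted p = 0.0371) between vehicle and AngII, although vehicle replicate 4 (23.9 FPKM) lay just above AngII replicate 3 (23.8 FPKM). The call was kept in 5 of 17 alternatives, with adjusted p values from 0.0175 to 0.112. Without AngII replicate 2, in which Ctss was highest, the difference was 1.03 (adjusted p = 0.0439). All 7 class II genes had differences above 0 (median 0.69).

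All 10 macrophage markers had differences above 0 for AngII against vehicle. Of these, 4 were called higher, where 1.27% of all genes were, namely the complement genes C1qa, C1qb and C1qc and the scavenger receptor gene Cd163. The summed macrophage markers lay between 283 and 400.2 FPKM in vehicle, 463 and 689 FPKM in AngII, and 347 and 593 FPKM in AngII plus OA. The 3 AngII libraries with the most members above vehicle, replicates 1, 4 and 5, also had the highest macrophage sums (675, 651 and 689 FPKM), followed by AngII plus OA replicates 1 (593 FPKM) and 4 (585 FPKM). AngII replicate 3, with 9 members below and 2 above all vehicle libraries, had 463 FPKM. AngII plus OA replicate 3, with 10 below and 1 above, and replicate 5, with 16 below and 0 above, had 519 and 504 FPKM, more than any vehicle library. The summed endothelial markers ran from 152 to 176 FPKM in vehicle, 178 to 213 FPKM in AngII and 142 to 193 FPKM in AngII plus OA, with 0 of 5 called, and 2 of 5 fibroblast markers were called higher in AngII. Several GTPases and class I genes were highest in AngII replicate 2. There 5 B cell markers summed to 53.3 FPKM, against 2.97 to 12.1 FPKM elsewhere. Over all libraries Ighm had the highest mean of these markers, at 8.30 FPKM, against 0.106 to 0.684 FPKM for the others. Neutrophil markers summed to 86.7 FPKM in AngII replicate 2 and 96.4 FPKM in AngII plus OA replicate 5, against 7.10 to 28.3 FPKM elsewhere. Markers of T cells, natural killer cells and dendritic cells were scarce, and 1 of 6, 2 of 5 and 2 of 5 of them passed the filter. Their highest sums were nevertheless in libraries where members were high, but other libraries did not follow this. T cell markers summed to 4.18, 2.91 and 3.33 FPKM in AngII replicates 1, 4 and 5 and 4.27 FPKM in AngII plus OA replicate 1, against at most 1.92 FPKM in vehicle. Natural killer cell markers summed to 3.12, 1.58 and 2.89 FPKM in those AngII libraries, against at most 1.36 FPKM in vehicle. Dendritic cell markers summed to 5.42, 5.12 and 6.16 FPKM in them, against at most 3.53 FPKM in vehicle. Over all libraries Clec9a had the highest mean of these markers, at 2.64 FPKM, against 0.0645 to 0.865 FPKM for the others. The 2 that passed the filter went opposite ways for AngII against vehicle, with differences of 0.58 and -0.17. AngII plus OA replicate 4, with 24 members above vehicle, had 5.03 FPKM for dendritic cells. Its T cell (1.67 FPKM) and natural killer cell (1.02 FPKM) sums lay within the vehicle ranges. AngII plus OA replicates 2 and 5, with 0 members above, exceeded every vehicle library for T cells (1.98 and 2.02 FPKM). They also did so for natural killer cells (1.43 and 1.58 FPKM). For dendritic cells, the same AngII plus OA libraries (3.64 and 3.54 FPKM) and AngII replicates 2 and 3 (3.63 and 3.87 FPKM) did so. For plasmacytoid dendritic cells, the marker Siglech was at most 0.253 FPKM, and Bst2, which makes up most of that list's sum, is itself a member. The part of these cells in the levels of the members was not tested.

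**Figure D5:**
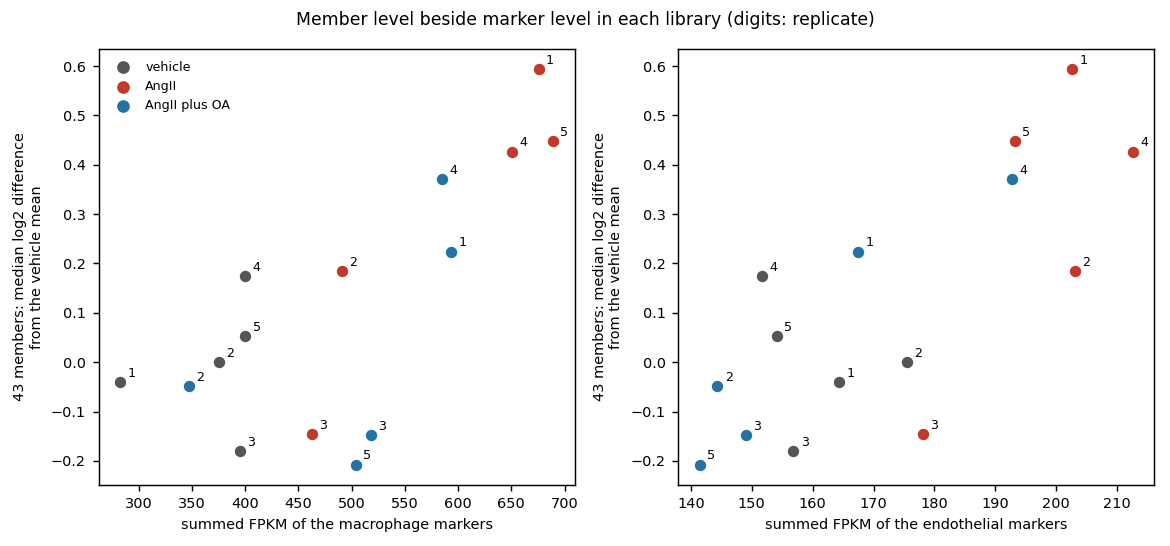
Median log2(FPKM + 1) difference of the 43 members from the vehicle mean (y axis) in each library (digit: replicate, colour: group), against the summed FPKM of 10 macrophage markers (left, x axis) or 5 endothelial markers (right, x axis). AngII replicates 1, 4 and 5 are high on both axes in both panels, while AngII plus OA replicates 3 and 5 have more macrophage marker FPKM than any vehicle library and no higher member median.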

How the data were processed

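Ventricular RNA of 15 mice was enriched for polyadenylated transcripts with oligo(dT) beads and sequenced on an Illumina instrument, per the labels' protocols. Titles and the design text gave the groups. The authors deposited 1 table of FPKM for 36653 Ensembl identifiers. HISAT2 2.0.4 and the build name mm8 are given per the submitters' processing notes. How reads were counted, with which annotation and strand setting, and what computed the FPKM is not given in the sources used here, so reads of close paralogs (the H2 class I genes, the Oas1 family, Ifit3 and Ifit3b, the Gbp and immunity-related GTPase genes) cannot be told apart with certainty. Mitochondrial transcripts enter the FPKM total, so their share moves the values of all other genes. Low FPKM values were whole multiples of 1 fragment within a tolerance of 0.02 for 89.9% to 91.0% of values per library, which gave the depths, and 38 of the 43 members gave whole fragments in all 15 libraries.

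Symbols came from GENCODE M21, which matched 36464 identifiers. Its build differs from mm8, so no gene coordinates were joined to the FPKM. Promoter sequences are RefSeq windows of build GRCm38.p6.

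The test was limma 3.58.1 (R 4.3.3) with its trend option, run on log2(FPKM + 1). It covered the 13121 genes whose mean reached 0.5 FPKM, and a single fit held all 15 libraries. Tests were 2-sided, adjusted by Benjamini-Hochberg per comparison over all genes tested, and called at 0.05. Differences on this scale understate the change of genes with low FPKM. The procedure was tested on simulated data. Alternatives covered the pseudocount, the filter, 2 scalings, the samples in the fit, a replicate block and each library left out in turn.

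The members, the other gene lists and the tests were chosen with earlier results of these data known. Any member could be named, with values in full for those that lead their role. Of the other pathway lists, the called genes were named, or else the 2 most abundant. The values of 1 gene of the pathway are not reported here.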

Additional observations from a re-analysis of the deposited data

Results flagged for a closer look

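Within each group of 5 libraries, the highest or lowest value was compared with the range of the group (Dixon's criterion, 0.710 of the range). Of 135 groups tested 18 exceeded it, where chance flags about 1 in 20 groups, or 6.75. Genes measured in 1 library are not independent of each other.

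In AngII plus OA replicate 1 5 GTPases stood apart as the highest of their group: Igtp at 49.7 FPKM (others up to 12.6), Iigp1 at 50.9 FPKM (others up to 20.1), Irgm1 at 8.78 FPKM (others up to 3.99), Gbp2 at 26.9 FPKM (others up to 13.3) and Gbp5 at 2.50 FPKM (others up to 1.77). Irgm1 was also far the highest in AngII replicate 2, at 14.1 FPKM against at most 5.43 in the other AngII libraries. In AngII plus OA replicate 4 another set stood apart, with Irf7 at 9.65 FPKM (others up to 5.41), Isg15 at 21.4 FPKM (others up to 11.0), Mx2 at 1.88 FPKM (others up to 1.04) and Ifi35, which binds NMI, at 11.9 FPKM (others up to 8.79).

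AngII replicate 3 was the lowest of its group by that criterion for Ifit1 at 3.52 FPKM (others from 6.87), Ifi27 at 26.2 FPKM (others from 42.4), Gbp3 at 5.61 FPKM (others from 10.4) and Tap2 at 4.28 FPKM (others from 5.92). Among vehicle libraries, replicate 4 was the highest for Usp18 at 2.33 FPKM and Parp14 at 5.66 FPKM, replicate 2 the lowest for Cxcl10 at 0.0723 FPKM, and replicate 1 the highest for the receptor gene Ifngr1 at 39.0 FPKM.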

How the results depend on the processing

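The count of members called higher in AngII than in vehicle was 0 with all libraries and ran from 0 to 6 when each of the 10 libraries was left out in turn. The 6 appeared without AngII replicate 3, where the adjusted p values (limma) were 0.0125 for Irf7, 0.0179 for H2-D1, 0.0281 for B2m, 0.0283 for Ifi27 and 0.0383 for Zbp1 and Psmb10; the cause was not tested. In every other alternative run, and for the other 2 comparisons and the opposite direction, 0 members were called. Members with an unadjusted p under 0.05 for AngII against vehicle numbered 12 in the fit as reported and from 6 (quantile normalization) to 20 (without AngII replicate 3), and for AngII plus OA against AngII they numbered 8 and from 3 to 20. The median difference of the members stayed between 0.18 and 0.44 for AngII against vehicle and between -0.39 and -0.20 for AngII plus OA against AngII. Between AngII plus OA and vehicle it ran from -0.03 to 0.11.

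With the replicate block the same count was 0 in all 3 comparisons, with 15, 14 and 1 members at an unadjusted p under 0.05. The labels do not say whether the replicate numbers pair the libraries. Over 15 same-numbered pairs, the correlation of deviations from the group means ran from -0.35 to 0.435. Of these, 6 exceeded 0.1, and 4 were the best match of their library. Replicate 3 was the best match in each pair of groups (0.211, 0.435 and 0.256). These values do not settle whether same-numbered libraries share a batch. With the block, Ifngr1 and Ctss had adjusted p values of 0.0552 and 0.0874.

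Over all genes the number called higher in AngII was 166 as reported, 63 without the filter or with only the groups compared, 69 with quantile normalization, 77 with mitochondrial transcripts left out of the total, 32 with the replicate block and 43 to 366 with 1 library left out. Members with few fragments, above all Cxcl10, Mx1, Dhx58 and Zbp1, carry the most counting error.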

Other observations

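Among genes that limma did not call, 2 of 13 tested genes of interferon induction and 1 of 52 further induced genes lay wholly higher in AngII than in vehicle, against 3.13% of all genes tested. They are named here after their values were seen. Tlr7, an endosomal sensor of single-stranded RNA, had 1.20, 0.479, 0.881, 0.933 and 0.578 FPKM in vehicle, 1.20, 2.08, 1.21, 1.40 and 1.66 FPKM in AngII and 1.62, 0.739, 1.45, 1.30 and 1.03 FPKM in AngII plus OA, and its nearest vehicle and AngII libraries were equal after rounding. Tbk1, the kinase that activates IRF3 and IRF7, ran from 6.03 to 8.54 FPKM in vehicle, 8.64 to 18.6 FPKM in AngII and 6.40 to 8.36 FPKM in AngII plus OA, so that AngII lay apart from both other groups. Shisa5 ran from 14.3 to 16.7 FPKM in vehicle and 17.3 to 23.1 FPKM in AngII. The adjusted p values (limma) for AngII against vehicle were 0.106, 0.232 and 0.0934.

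Stat3 lay wholly lower in AngII plus OA, at 10.4 to 10.7 FPKM, than in AngII, at 10.9 to 20.8 FPKM, and its 5 AngII plus OA libraries had an SD of only 0.131 FPKM (limma adjusted p = 0.710). Wholly lower values were found for 1.04% of all genes in that comparison. Pdia3 and Ptpn6, a phosphatase of blood cells, lay wholly higher in AngII plus OA than in vehicle, at 94.5 to 106 against 72.2 to 94.0 FPKM and 2.25 to 2.96 against 1.23 to 2.18 FPKM, where 0.655% of all genes did.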
